A study of Mus musculus with 2 samples.

Results

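Oxidative phosphorylation is carried out by 5 protein complexes of the inner mitochondrial membrane. The genes described here are the nuclear-encoded subunits of those complexes, taken as every gene symbol listed for both tumours that starts with Ndufa, Ndufb, Ndufc, Ndufs, Ndufv, Uqcr, Cox4 to Cox8 or Atp5, or that is Sdha, Sdhb, Sdhc or Sdhd, with symbols marked as pseudogenes left out. The rule found 93 of 31055 genes and used no measured value. They comprised 36 genes of complex I, 4 of complex II, 8 of complex III, 19 of complex IV (with Ndufa4 and its relative Ndufa4l2) and 16 of complex V. The rule also took in 8 complex I assembly factors (Ndufaf genes), the supercomplex factor Cox7a2l and the coupling factor Atp5s, which are not subunits. Atp5o was listed under 2 gene identifiers, of which 1 held no reads.

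Complexes I and II pass electrons from NADH and succinate to ubiquinone, complexes III and IV carry them on to oxygen, and complex V, the ATP synthase, uses the resulting proton gradient to make ATP. Complex II is built from nuclear genes alone, whereas each of the other complexes also needs subunits encoded in the mitochondrial genome, so the transcripts of the mitochondrial (mt-) genes were measured beside the nuclear ones. In leukocytes the balance between respiration and glycolysis differs by cell type: neutrophils are known for few mitochondria and a reliance on glycolysis, and several complex IV subunits have tissue-restricted isoforms.

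The cells came from subcutaneous squamous cell carcinomas of untreated mice of the FVB strain. Each tumour was a mosaic of a YFP-carrying carcinoma line, CIT6, and an RFP-carrying one, CIT9, injected together, so every tumour held both lines and no tumour of a single line is compared here. Tissue sections were marked with light-printed oligonucleotide codes (ZipSeq), digested, and sorted for CD45, the pan-leukocyte surface protein, before 10x 3' v3 single-cell RNA sequencing. The 2 samples, called replicates 1 and 3 after their labels, form 1 group; the age of the animals, and whether the tumours came from separate animals, are not given in the labels. All comparisons are therefore between cell classes within the tumours. The tests remove a shift common to all classes of a tumour. Their spread is what remains, namely how class levels varied between these 2 tumours, pooled over 12 classes.

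The files held counts of unique molecular identifiers (UMIs), 1 for each captured RNA molecule, with 89040909 gene UMIs in replicate 1 and 170328781 in replicate 3. After filtering, 4818 and 6734 cells were kept in replicates 1 and 3, with medians of 16798 and 21345.5 UMIs, and the libraries shared 9 cell barcodes. Cells were placed in 12 classes by marker genes, and cells passing the gates of several classes (229 and 160) were left out as possible doublets. A further 1297 and 2081 cells passed no gate, counted without the Ctsk Acp5 cells described below (28 and 123). Also outside the 12 classes were T cells with no subset gate (169 and 340) and macrophages with 1 or 2 cell cycle markers (116 and 199). Cells passing a B cell, mast cell or stromal gate were outside them as well. The members' share was 1.97% and 2.13% in barcodes of 10 to 100 UMIs, which hold mostly free RNA.

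Several members had promoters that carry the motifs bound by NRF1 and by ETS factors, 2 kinds of regulator known for driving respiratory chain genes. Promoter windows of 300 bases (250 before to 50 after the RefSeq start, GRCm38.p6) were found for 74 of the 92 symbols, some with several starts. The NRF1 motif, read on both strands, was present in 20 of 79 member windows (25.3%) and in 4.603% of all 32851 windows. The ETS motif CGGAAG occurred in 41.8% of member windows and in 16.9% of all. The YY1 motif AAGATGG was found in 13.9% against 6.34%, the ESRRA motif AAGGTCA in 10.1% against 4.72%, and the TATA box TATAAA in 10.1% against 13.6%. A match describes letters in the window and not a bound site. The 250 bases before the start are shown for 3 members that carry both of the first motifs: Atp5c1 (gamma subunit of the ATP synthase, chr2:10080433-10080682, minus strand), Atp5h (its subunit d, chr11:115419920-115420169, minus strand) and Ndufaf4 (a complex I assembly factor, chr4:24897833-24898082, plus strand). They were picked among members whose measured level fell in neutrophils, as described below. Atp5g2 also met these conditions and is not shown. Capitals mark the motifs, and an ETS motif on the other strand reads CTTCCG.
Atp5c1: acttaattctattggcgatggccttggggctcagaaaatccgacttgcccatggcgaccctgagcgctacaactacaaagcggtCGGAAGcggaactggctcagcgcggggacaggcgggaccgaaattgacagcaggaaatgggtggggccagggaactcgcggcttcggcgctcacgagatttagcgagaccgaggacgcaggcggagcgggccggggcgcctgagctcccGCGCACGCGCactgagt
Atp5h: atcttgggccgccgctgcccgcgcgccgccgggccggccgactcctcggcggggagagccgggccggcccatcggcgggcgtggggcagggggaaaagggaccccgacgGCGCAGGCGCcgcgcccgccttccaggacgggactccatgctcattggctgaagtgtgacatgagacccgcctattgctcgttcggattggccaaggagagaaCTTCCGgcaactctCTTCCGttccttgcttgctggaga
Ndufaf4: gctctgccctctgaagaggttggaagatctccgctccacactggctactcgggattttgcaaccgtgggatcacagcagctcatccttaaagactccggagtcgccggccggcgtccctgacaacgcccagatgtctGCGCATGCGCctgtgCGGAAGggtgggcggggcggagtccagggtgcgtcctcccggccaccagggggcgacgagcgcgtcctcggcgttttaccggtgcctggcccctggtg

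The members took a similar share of the RNA in most leukocyte classes, and neutrophils had the lowest share in both tumours. Of all gene UMIs in a class, the members made up 0.747% and 1.53% in neutrophils of replicates 1 and 3. In activated dendritic cells marked by Ccr7, the chemokine receptor of dendritic cells that travel to lymph nodes, the share was 1.64% and 1.91%. Macrophages with no cell cycle marker above the level set for free RNA (called other macrophages) had 1.89% and 2.17%. The other 9 classes lay between 2.09% and 2.46% in both tumours. Dividing macrophages had 2.43% and 2.45%. Plasmacytoid dendritic cells (pDC), the type I interferon producers, had 2.26% and 2.33%, and CD8 T cells had 2.22% and 2.35%. Without neutrophils the 11 classes spanned 1.48-fold in replicate 1 and 1.29-fold in replicate 3. Replicate 3 had the higher share in 12 of 12 classes.

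**Figure D1:**
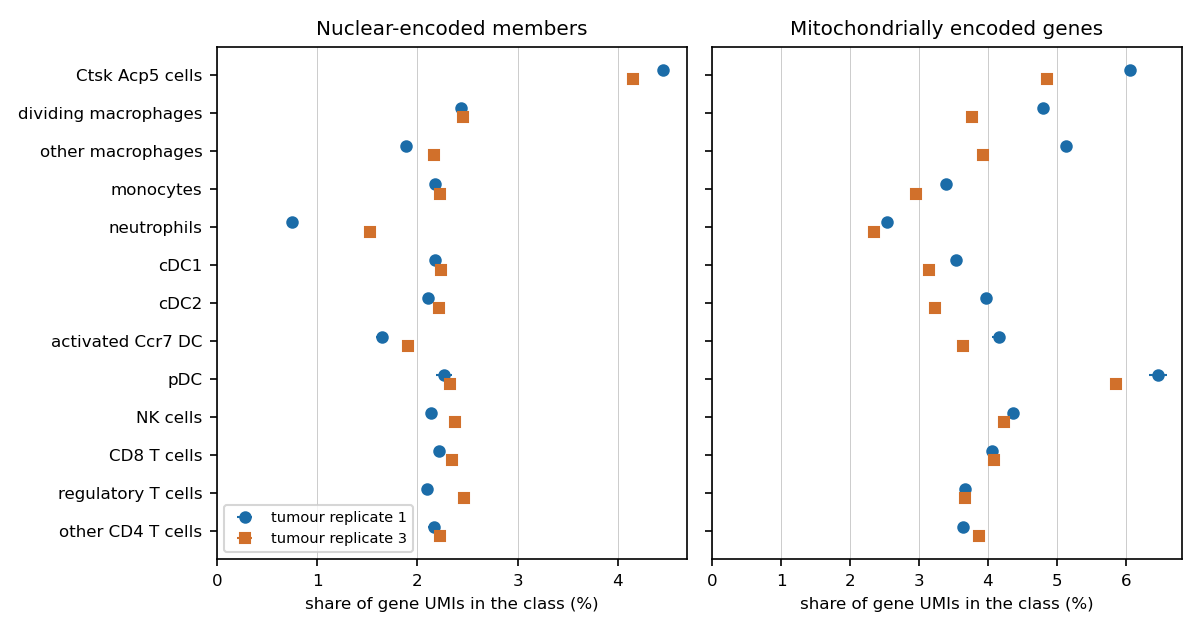
Share of gene UMIs (%) taken by the 93 nuclear-encoded members (left) and the 13 mitochondrially encoded genes (right) in each class; circles are tumour replicate 1, squares replicate 3, and bars are exact 95% binomial intervals, which cover counting error only and are mostly smaller than the symbols. Neutrophils lie lowest on the left at 0.747% and 1.53%, and pDC highest of the 12 tested classes on the right at 6.47% and 5.86%; the Ctsk Acp5 cells, chosen after the data were seen, lie apart on the left at 4.46% and 4.15%.

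The share of the mitochondrially encoded genes did not order the classes in the same way. It was highest in pDC, at 6.47% and 5.86%, and lowest in neutrophils, at 2.54% and 2.35%. Monocytes, the blood-borne precursors of tumour macrophages, had 3.39% and 2.96%, below other macrophages at 5.13% and 3.92%, although their nuclear share of 2.18% and 2.23% was the higher of the pair in both tumours. The mitochondrial share was higher in replicate 3 in only 2 of 12 classes. Over the 12 classes, which differ in depth and share their 2 libraries, Pearson's r between the nuclear and the mitochondrial share was 0.502 in replicate 1 and 0.533 in replicate 3. Without neutrophils it was 0.121 and 0.237 over 11 classes, and without neutrophils and pDC -0.116 and 0.253 over 10. Spearman's rho, which compares ranks, was 0.28 and 0.497 over the 12 classes. Without neutrophils rho was 0.0636 and 0.345. The cell filter removed cells above 10% mitochondrial UMIs, which bounds the mitochondrial share but not the nuclear one.

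Class differences were tested with edgeR's quasi-likelihood test on UMIs summed per tumour and class, with the tumour as a block and Benjamini-Hochberg adjustment over 9404 genes at 0.05. Values below are gene UMIs scaled to a common total (CPM), in the order replicate 1 and replicate 3, and log2 fold changes are given with their standard errors. Of the 93 members, 85 passed the filter on low counts. The 8 others were Cox4i2, Cox7a1, Ndufa4l2 and Atp5s, which had few UMIs, and Cox7b2, Cox8b, Cox8c and the second Atp5o identifier, for which no UMI was counted in the 12 classes. Many members have processed pseudogenes, and the handling of reads that map to several places is not given in the sources used here, so single levels carry that uncertainty.

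**Figure D2:**
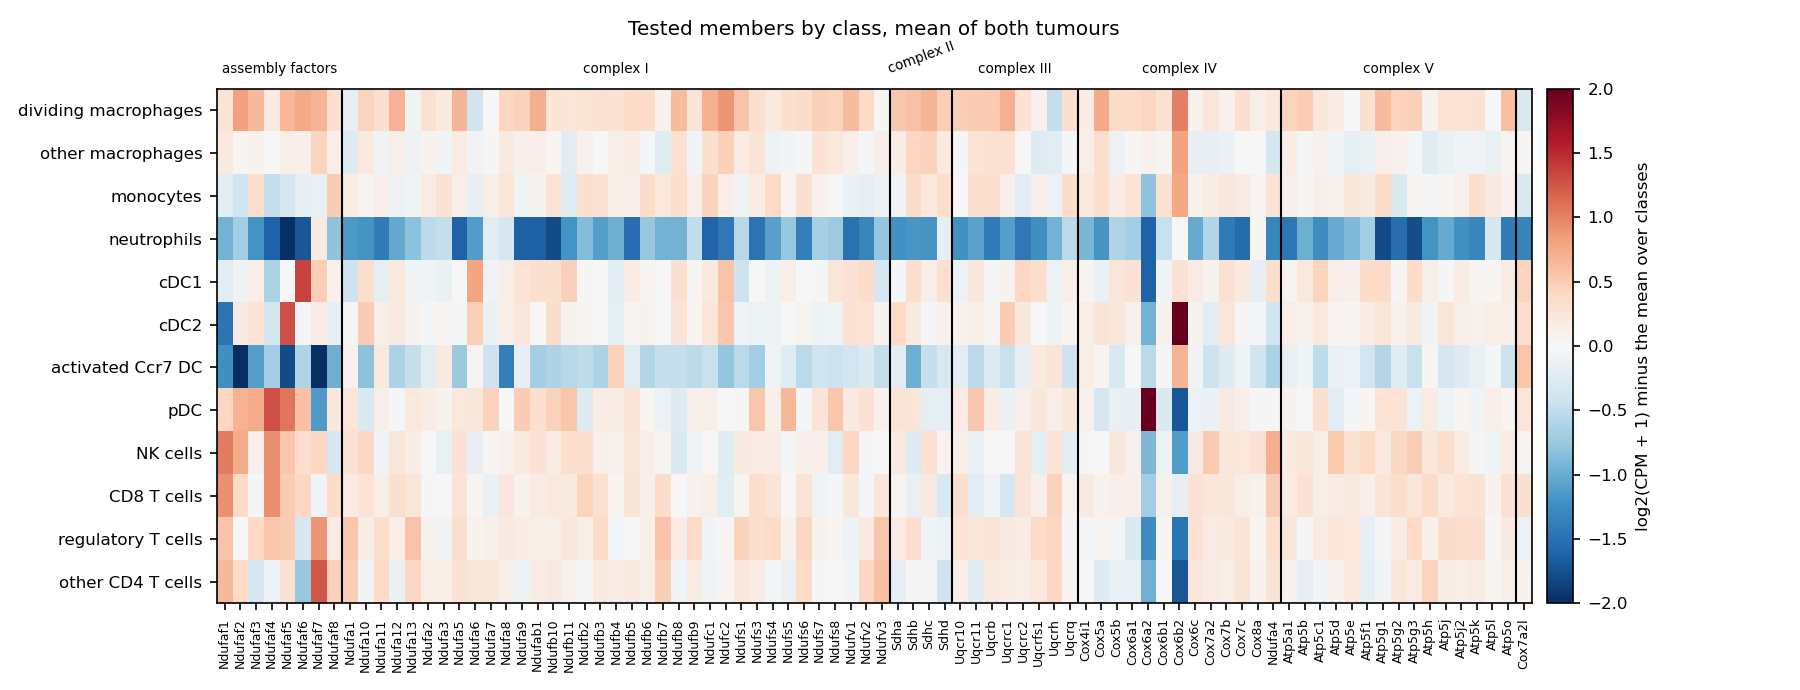
Level of the tested members, 1 left out (columns, grouped by complex) in the 12 classes (rows), as log2(CPM + 1) averaged over both tumours minus the member's mean over the classes, with colours limited to 2 in either direction. The neutrophil row is blue across nearly all members, and the squares that stand out elsewhere are Cox6a2 in pDC, Cox6b2 in type 2 conventional dendritic cells (cDC2) and the assembly factors, which have low counts.

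Neutrophils, short-lived phagocytes, had lower levels of genes from every complex than other macrophages, the resident and recruited phagocytes that made up the most numerous class. With edgeR 45 of the 85 members fell and 1 rose, where 20.6% of all genes tested fell and 22.6% rose. The median log2 fold change of the members was -0.67, against -0.23 over all genes tested. By complex, 19 of 36 tested genes fell in complex I, 3 of 4 in complex II, 6 of 8 in complex III, 4 of 13 in complex IV and 9 of 15 in complex V; 3 of 8 assembly factors and Cox7a2l fell as well. The summed complex I level was 2005 and 4263 CPM in neutrophils, against 5459 and 6171 CPM in other macrophages.

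Among the entry complexes, Ndufv1, the subunit that binds NADH, had 17.4 and 28.1 CPM in neutrophils, against 64.2 and 73.5 CPM in other macrophages. The neutrophil values lay below the macrophage values in both tumours (log2 fold change -1.11 ± 0.28, edgeR adjusted p = 0.003). The accessory subunits Ndufc2 and Ndufc1 had the largest falls among members with more than a few counts. Ndufc2 had 23.4 and 129.4 CPM in neutrophils, against 181.6 and 247.9 CPM in other macrophages (-1.54 ± 0.30, edgeR adjusted p = 0.00026). Ndufc1 had 29.5 and 73.1 CPM in neutrophils, against 166.7 and 191.8 CPM in other macrophages. Sdhb, the iron-sulfur subunit of complex II, had 58.2 and 73.1 CPM in neutrophils, against 182.6 and 219 CPM in other macrophages. This fall was of much the same size in both tumours (-0.98 ± 0.25, edgeR adjusted p = 0.0035). Sdha, its flavoprotein, had 29.5 and 33.7 CPM in neutrophils, against 79.3 and 84.3 CPM in other macrophages.

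Downstream, the complex III core subunit Uqcrc1 had 24.9 and 78.7 CPM in neutrophils, against 107.5 and 132.5 CPM in other macrophages. The Rieske iron-sulfur subunit Uqcrfs1 also fell, by 0.54 ± 0.21 on the log2 scale, close to the threshold at an edgeR adjusted p of 0.0399. Cox5a of complex IV had 134.6 and 337.4 CPM in neutrophils, against 511.6 and 730.1 CPM in other macrophages (-1.05 ± 0.20, edgeR adjusted p = 0.0003). The 3 genes for the rotating c-ring of the ATP synthase, Atp5g1, Atp5g2 and Atp5g3, encode the same mature protein, and all 3 fell. Atp5g1 had 43.1 and 146.2 CPM in neutrophils, against 250.8 and 366.8 CPM in other macrophages (-1.50 ± 0.24, edgeR adjusted p = 2.9e-05). Atp5c1, whose promoter is shown above, had 88.4 and 225 CPM in neutrophils, against 328.1 and 381.5 CPM in other macrophages. Of the catalytic pair, Atp5a1 passed the test (-1.15 ± 0.20) and Atp5b, with 126.2 and 388.1 CPM in neutrophils and 376 and 475.8 CPM in other macrophages, did not (-0.46 ± 0.21, edgeR adjusted p = 0.0747).

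The low-count assembly factors Ndufaf5 and Ndufaf6 had at most 1 UMI in neutrophils. Ndufaf5, a complex I assembly enzyme, had 0 UMIs in both neutrophil libraries, against 5.88 and 8.09 CPM in other macrophages. With 3 counts over both libraries as the floor, its level was at least 3.60-fold lower in neutrophils. Ndufaf6 had a single UMI in neutrophils, and its ratio to other macrophages was 0.0785 with a 95% counting interval of 0.00198 to 0.438. Setting the 2 members with no neutrophil UMI at their bound gave a member median of -0.65. The 1 member that rose was Cox8a, the ubiquitous isoform of the smallest complex IV subunit. It had 722.7 and 1181 CPM in neutrophils, against 842.6 and 971.2 CPM in other macrophages, so it was lower in replicate 1 and higher in replicate 3 before scaling. Its log2 fold change was 0.52 ± 0.17, and -0.15 when libraries were scaled by their totals outside ribosomal and mitochondrial genes.

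The size of the neutrophil difference depended on the tumour and on the scaling. The median log2 ratio of member CPM was -1.55 in replicate 1 (411 neutrophils) and -0.60 in replicate 3 (44 neutrophils). Scaled by totals without ribosomal and mitochondrial genes, and with no TMM factors, 81 of 85 members fell. The median of all genes tested then moved to -1.14. The neutrophil markers, among them the S100a8 and S100a9 alarmins, took 142200 and 46370 CPM of neutrophil RNA, and the TMM scaling factors were 0.536 and 0.888. Neutrophils were shallow, with medians of 2613 and 2722.5 UMIs against 19814 and 23736 in other macrophages. The summed level of the 7 macrophage markers in neutrophils was 843.6 and 1434 CPM, with none at 0, against 16990 and 17350 CPM in other macrophages, and the part of such RNA in the difference between the tumours was not tested. After subtracting 10% of each class sum in the proportions of free RNA, 50 members fell. The shares of all genes tested that fell under this and the other scaling are not given here.

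Genes of the tricarboxylic acid (TCA) cycle and of the mitochondrial ribosome fell with the members in neutrophils, and glycolytic genes rose, where 20.6% of all genes tested fell and 22.6% rose. Among TCA cycle and electron carrier genes, 10 of 21 fell and 0 rose (0 also without adjustment, and 0 with DESeq2). Of 77 mitochondrial ribosomal protein genes, which translate the mt- transcripts, 49 fell and 2 rose. Of 30 tested respiratory chain assembly factors that are not members, 6 fell, a share near that of all genes, and 3 rose, which were Cox17, Higd1a and Sdhaf2. Cox17, a copper chaperone of complex IV, had 398.4 and 326.2 CPM in neutrophils, against 102.1 and 71.3 CPM in other macrophages (2.65 ± 0.22, edgeR adjusted p = 4.46e-09). Of 14 glycolysis genes 11 rose and 0 fell (0 also unadjusted and with DESeq2). Of those that rose, Hk1, Hk2, Pfkl, Gapdh and Ldha were higher in replicate 1 and lower in replicate 3 before scaling. Hk2 had 337.1 and 5.62 CPM in neutrophils, against 139.1 and 47.5 CPM in other macrophages. The glucose transporter Slc2a1 had 624.4 and 275.6 CPM in neutrophils, against 135.9 and 52.7 CPM in other macrophages (2.98 ± 0.37, edgeR adjusted p = 1.36e-06). Pkm, pyruvate kinase, had 1480 and 1355 CPM in neutrophils, against 743.4 and 736.1 CPM in other macrophages. Of the 13 mitochondrially encoded genes, mt-Co1 and mt-Nd1 fell. These counts shift with the scaling: with totals outside ribosomal and mitochondrial genes, 19 TCA cycle and carrier genes, 23 of the assembly factors and 12 mitochondrially encoded genes fell, and 5 glycolysis genes rose and 1 fell.

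**Figure D3:**
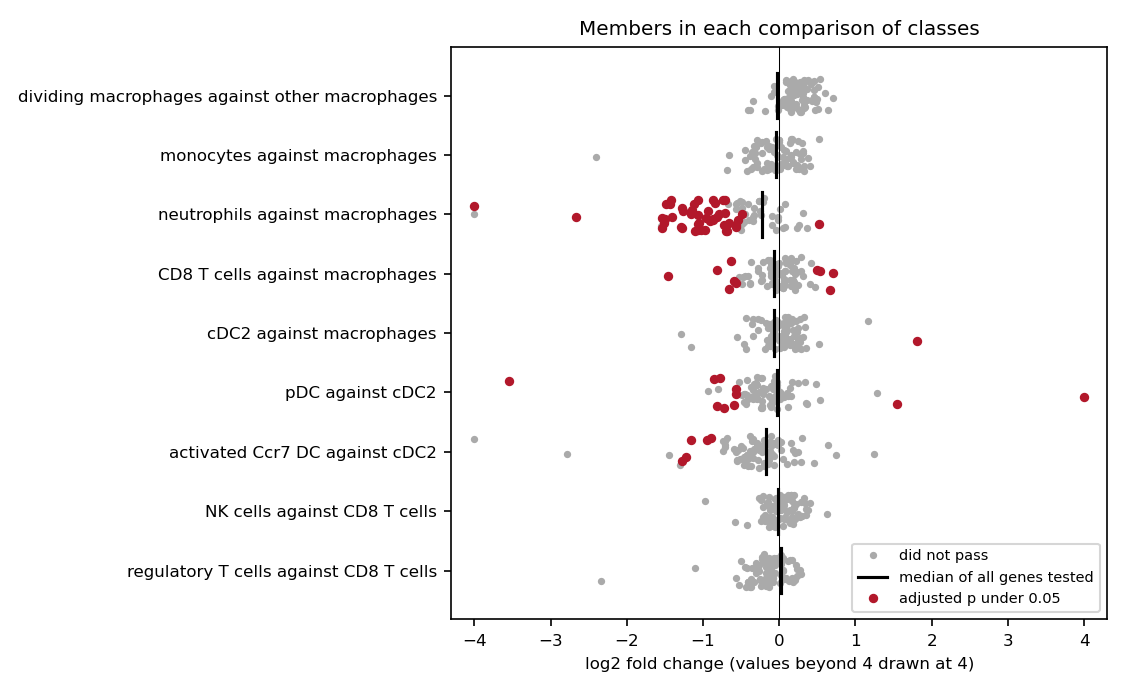
Log2 fold change of each tested member (points) in the 9 comparisons of classes, with the class named first over the class named after it; red points passed the edgeR test at an adjusted p under 0.05, grey points did not, black ticks are the median over all genes tested, and values beyond 4 are drawn at 4. Of 85 members 45 fell in neutrophils, while 0 passed in dividing macrophages, monocytes, NK cells and regulatory T cells.

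Dividing macrophages, those with transcripts such as Mki67 and Top2a, had slightly more of nearly every member than other macrophages, and no single member passed the test. The edgeR counts were 0 higher and 0 lower, where 9.26% of all genes tested rose and 4.43% fell. At an unadjusted p under 0.05, 14 members were higher and 1 was lower, and DESeq2 called 0 higher and 3 lower. The median log2 fold change was 0.23 for the members and -0.03 for all genes tested. Of the 85 members, 75 had a higher CPM in the dividing class in both tumours. The share of all genes tested that did so is not given here. The summed complex V level was 7184 and 7451 CPM in dividing macrophages, against 5294 and 6328 CPM in other macrophages. Cox7a2l, which helps join complexes III and IV, went the other way, with 336.1 and 347.8 CPM in dividing macrophages and 449.2 and 397.7 CPM in other macrophages (-0.39 ± 0.20, edgeR adjusted p = 0.22). Dividing macrophages were also deeper, with medians of 34045 and 42763 UMIs a cell. Against only those other macrophages that reached the lower quartile of the dividing cells' UMIs, where the share was 2.02% and 2.29%, 0 members passed in either direction.

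Around the members, 8 of 77 mitochondrial ribosomal protein genes rose in dividing macrophages, a share near the 9.26% of all genes tested. Nrf1, the factor whose motif is shown above, had 40.6 and 30.6 CPM in dividing macrophages, against 22.3 and 16.6 CPM in other macrophages (0.80 ± 0.22, edgeR adjusted p = 0.0156). Gabpb1, a partner of the ETS factor Gabpa, rose as well (0.72 ± 0.23, edgeR adjusted p = 0.0417). Of 9 tested genes listed as regulators of mitochondrial biogenesis, only these 2 rose and 0 fell. In neutrophils, where 45 members fell, 4 of the 9 rose (Gabpb1, Hif1a, Gabpa and Yy1) and 0 fell, where 22.6% of all genes tested rose. Before scaling, Yy1 was lower than in other macrophages in replicate 1 (91.5 against 98.2 CPM) and higher in replicate 3. The list does not separate genes that raise biogenesis from genes that lower it. In CD8 T cells Gabpb1 and Tfam rose and Esrra fell, relative to other macrophages. In dividing macrophages against other macrophages, 0 of the 13 mitochondrially encoded genes passed (1 lower at an unadjusted p under 0.05, 0 with DESeq2). Their median log2 fold change there was -0.07.

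Monocytes had less of several mitochondrially encoded transcripts than other macrophages, and no nuclear member passed the test. With edgeR 0 members passed in either direction, where 6.99% of all genes tested rose and 7.1% fell; 2 were higher and 2 lower at an unadjusted p under 0.05, and DESeq2 called 1 higher and 2 lower. The members' median log2 fold change was -0.03, against -0.04 for all genes tested. Of the 13 mitochondrially encoded genes, 5 fell in monocytes, namely mt-Co1, mt-Co2, mt-Co3, mt-Atp6 and mt-Cytb. The complex V subunit mt-Atp6 had 5835 and 5606 CPM in monocytes, against 8690 and 8087 CPM in other macrophages (-0.64 ± 0.18, edgeR adjusted p = 0.0193). Scaled by totals outside ribosomal and mitochondrial genes, 1 of the 13 fell.

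Among dendritic cells, the largest differences that passed the test lay in isoforms of complex IV subunits. Cox6a2, the isoform of subunit VIa known from heart and skeletal muscle (chr7:128205435-128206366, GRCm38.p6), had 1412 and 1331 CPM in pDC, against 0 and 1.55 CPM in cDC2, the dendritic cells that take up and present antigen mainly to CD4 T cells. In the other 10 classes its highest value was 5.03 CPM. The cDC2 values rest on 1 UMI, so the ratio of 1323 has a 95% counting interval of 237 to 52280 (edgeR adjusted p = 3.1e-10). Cox6a2 passed the filter on low counts only through the pDC libraries, where it is high. The adjusted p is therefore not separate support for the difference. Cox6a1, the ubiquitous isoform of the same subunit, was present in pDC at 207.1 and 249.2 CPM, against 262.9 and 274.4 CPM in cDC2, and did not pass the test.

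Cox6b2, the isoform of subunit VIb known from testis (chr7:4751792-4753094), showed the reverse pattern. It had 0 and 4.55 CPM in pDC, against 49.1 and 41.9 CPM in cDC2 (-3.55 ± 0.62, edgeR adjusted p = 0.0002). The cDC2 level was also above that of other macrophages, at 13.5 and 11.4 CPM, and it was the 1 member that passed between these classes (1.81 ± 0.41, edgeR adjusted p = 0.0035). In this comparison 7.95% of all genes tested rose and 7.72% fell. With edgeR no other member passed; 3 were higher and 1 lower at an unadjusted p under 0.05, and DESeq2 called 3 higher and 0 lower. In each of the other 10 classes Cox6b2 was at or under 20.9 CPM in both tumours, and the 2 cDC2 libraries were the highest 2 of 24. Cox6b1, the ubiquitous isoform, had 355 and 355.6 CPM in pDC, against 444.8 and 476 CPM in cDC2. The cDC2 class held 12 and 23 cells and the pDC class 11 and 160, and the 7 macrophage markers summed to 505.5 and 393.8 CPM in cDC2. The 8 tumour or stromal markers summed to 22.2 and 35.2 CPM in pDC, against 496.8 and 214 CPM in cDC2, and to 27.2 and 16.8 CPM in other macrophages. Epcam made up nearly all of the cDC2 sum, at 479.5 and 209.3 CPM, and 4 of the 8, among them the keratins Krt5, Krt8 and Krt14, were at 0 in both cDC2 libraries. The 8 markers of dividing cells summed to 0 and 41.4 CPM in pDC, against 1453 and 282.2 CPM in cDC2, and to 31.6 and 45.0 CPM in other macrophages. The part of these markers in the cDC2 differences was not tested.

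**Figure D4:**
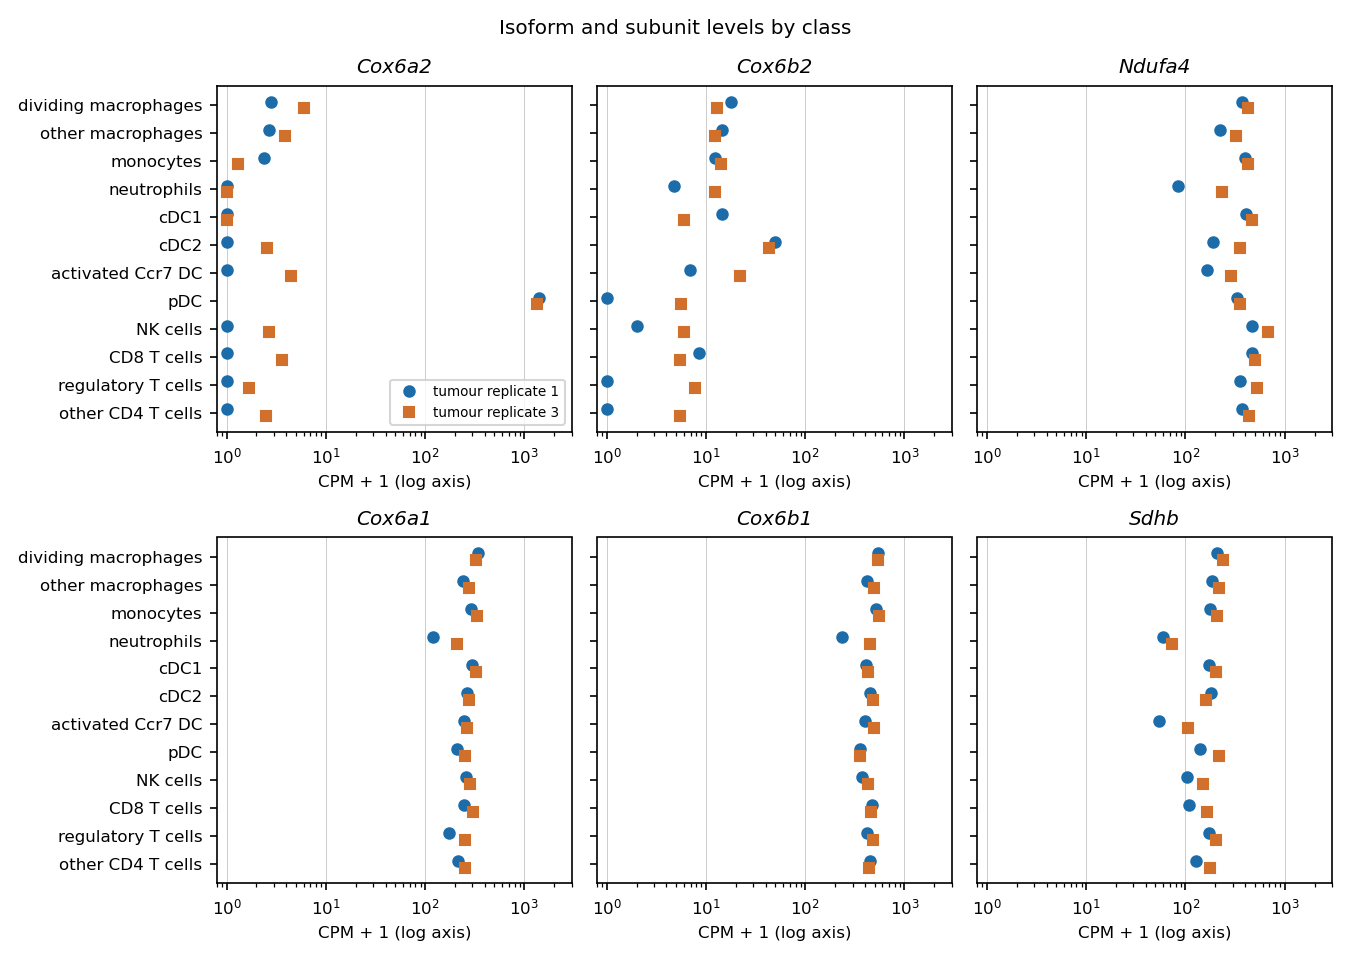
CPM + 1 on a log axis of 6 members in the 12 classes (rows), with circles for tumour replicate 1 and squares for replicate 3. Cox6a2 stands at 1412 and 1331 CPM in pDC and near 0 elsewhere, Cox6b2 is highest in cDC2 at 49.1 and 41.9 CPM, Ndufa4 ranges between 82.4 CPM in neutrophils and 674.3 CPM in NK cells, and the ubiquitous Cox6a1 and Cox6b1 and the complex II subunit Sdhb are lowest or near lowest in neutrophils.

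Over all members, 2 rose and 8 fell in pDC relative to cDC2, where 11.0% of all genes tested rose and 14.6% fell. The other member that rose was Ndufaf4, with 51.8 and 60.4 CPM in pDC, against 17.3 and 17.1 CPM in cDC2 (1.55 ± 0.42, edgeR adjusted p = 0.0083). Besides Cox6b2, the falls were modest and lay in Ndufa10, Ndufb8, Ndufc2, Cox5a, Cox5b, Cox6b1 and Atp5j. Cox5a, for example, had 318 and 463.2 CPM in pDC, against 511.3 and 657.4 CPM in cDC2 (-0.78 ± 0.20, edgeR adjusted p = 0.0068). The balance of calls depended on the scaling: with totals outside ribosomal and mitochondrial genes 4 members rose and 1 fell, and the median log2 fold change of the members was 0.07 in place of -0.21. Without the tumour block 2 rose and 1 fell. Cox6a2, Ndufaf4 and Cox6b2 passed in the same direction under all 10 alternatives that could be run. The alternatives reuse the same libraries, so for Cox6a2 this is no separate support either.

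Mitochondrially encoded genes and glycolysis genes also differed between these dendritic cells. Of the 13 mitochondrially encoded genes 9 rose in pDC and 0 fell (0 also unadjusted and with DESeq2), and 11 rose with totals outside ribosomal and mitochondrial genes. The complex I subunit mt-Nd4 had 3964 and 3651 CPM in pDC, against 2195 and 1949 CPM in cDC2 (0.66 ± 0.20, edgeR adjusted p = 0.0167). Of 14 glycolysis genes 11 fell in pDC and 0 rose (0 also unadjusted and with DESeq2). Enolase, Eno1, had 155.3 and 136.6 CPM in pDC, against 563.3 and 572.2 CPM in cDC2 (-2.13 ± 0.25, edgeR adjusted p = 1.62e-06).

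Activated Ccr7 dendritic cells were set against the same cDC2 libraries, so this comparison shares its lower term with the previous one. They held 12 and 14 cells. Their tumour or stromal markers summed to 17.7 and 34.8 CPM and their markers of dividing cells to 5.9 and 52.2 CPM, both below the cDC2 sums given above. With edgeR 5 members fell and 0 rose (2 without adjustment, 2 with DESeq2), where 8.33% of all genes tested fell and 7.82% rose, so the members' 5 of 85 is near the background. The 5 were the complex I subunits Ndufa8, Ndufa10, Ndufb10 and Ndufc2 and the complex II subunit Sdhb. Ndufa8, an accessory subunit, had 35.4 and 66.1 CPM in activated dendritic cells, against 121.3 and 155.1 CPM in cDC2 (-1.28 ± 0.28, edgeR adjusted p = 0.0031). Sdhb had 53.1 and 104.4 CPM in activated dendritic cells, against 179.1 and 161.3 CPM in cDC2. The median log2 fold change was -0.29 for the members and -0.17 for all genes tested. In both tumours 61 of 85 members were lower, and the matching share of all genes tested is not given here. Without the tumour block 1 member passed. Among the other lists, 12 of 77 mitochondrial ribosomal protein genes fell and 2 rose, and 5 of 21 TCA cycle and carrier genes and 5 of 14 glycolysis genes fell.

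In CD8 T cells few members passed relative to other macrophages, and those moved in both directions. Of 85 members, 4 were higher and 6 lower by edgeR. Both are smaller shares than those of all genes tested, of which 19.3% rose and 25.1% fell. Ndufa4, a subunit now assigned to complex IV, had 469 and 504 CPM in CD8 T cells, against 224.7 and 320.5 CPM in other macrophages (0.70 ± 0.21, edgeR adjusted p = 0.009). Uqcrh, the hinge subunit of complex III, had 769.1 and 771.3 CPM in CD8 T cells, against 474.4 and 485.7 CPM in other macrophages (0.54 ± 0.18, edgeR adjusted p = 0.019). Atp5h and Ndufaf4, whose promoters are shown above, also rose, although both were among the members that fell in neutrophils. Atp5h had 581.5 and 773.5 CPM in CD8 T cells, against 385.7 and 485 CPM in other macrophages. The lower members included 3 of the 4 complex II genes, Sdhb, Sdhc and Sdhd, with Ndufc2, Uqcr11 and Cox6b2. Sdhb kept its call in 9 of 12 alternatives, and Sdhc and Sdhd kept theirs in 4 of 12 each. Sdhb had 108.8 and 163.7 CPM in CD8 T cells, against 182.6 and 219 CPM in other macrophages (-0.67 ± 0.23, edgeR adjusted p = 0.021). Sdhc was higher in CD8 T cells in replicate 1 and lower in replicate 3 before scaling. These calls depended on the fit: without the tumour block 0 members passed, and with totals outside ribosomal and mitochondrial genes 13 rose and 0 fell while the median of all genes tested was 0.29 in place of -0.07.

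In the 2 comparisons made among lymphocyte classes no member passed with edgeR. Between NK cells and CD8 T cells, both killers of target cells, 0 members passed with edgeR, 1 was higher and 1 lower at an unadjusted p under 0.05, and DESeq2 called 0. Of all genes tested 2.21% rose and 2.57% fell. Ndufa4 had 470.4 and 674.3 CPM in NK cells and 469 and 504 CPM in CD8 T cells. Between regulatory T cells and CD8 T cells, 0 members passed with edgeR, where 4.01% of all genes tested rose and 2.98% fell; 0 were higher and 5 lower at an unadjusted p under 0.05, and DESeq2 called 3 lower. The median log2 fold change of the members was 0.01 for NK cells and -0.14 for regulatory T cells, each against CD8 T cells.

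The remaining tissue isoforms were rare. Cox4i2, the isoform of subunit IV known from lung, had 4.58 and 1.85 CPM in dividing macrophages and 4.64 and 4.94 CPM in other macrophages. Cox7a1, known from muscle, had 14.9 and 8.68 CPM in dividing macrophages and 8.98 and 7.86 CPM in other macrophages. Ndufa4l2, a relative of Ndufa4 known as a hypoxia target, was counted with 55 UMIs in all 12 classes, 54 of them in other macrophages. Cox7b2, Cox8b and Cox8c had 0 UMIs.

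The highest member levels were found outside the gated classes. Among cells that passed no gate, 28 and 123 carried at least 3 of the genes Ctsk, Acp5, Atp6v0d2, Mmp9 and Slc9b2, which include a cysteine protease and an acid phosphatase. These Ctsk Acp5 cells were picked after the data were seen, so their values are a description with no test. The members took 4.46% and 4.15% of their gene UMIs. Of 83 members with a mean of at least 10 CPM, 82 were higher than in other macrophages in both tumours and 35 were at least 2-fold higher in both, where 7.75% of all genes at that level were. At least 2-fold lower in both tumours were 0 members, against 11.6% of all genes. For the count of 82, the matching share of all genes is not given here. The median ratio over the members was 2.34 and 1.92, against 0.959 and 1.06 over all genes.

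Atp5b, the catalytic subunit of the ATP synthase, had 1379 and 1351 CPM in Ctsk Acp5 cells, against 376 and 475.8 CPM in other macrophages. Ndufa4 had 860.3 and 941 CPM in Ctsk Acp5 cells, against 224.7 and 320.5 CPM in other macrophages. Uqcr10, a small complex III subunit, had 988.4 and 713 CPM in Ctsk Acp5 cells, against 254.1 and 256.8 CPM in other macrophages. Cox6b2 was the 1 member not higher in both tumours. Of 21 TCA cycle and carrier genes 11 were at least 2-fold higher in both tumours, as were 18 of 77 mitochondrial ribosomal protein genes. Of the 13 mitochondrially encoded genes and the 14 glycolysis genes 0 were, with median ratios of 1.31 and 1.31 for the mitochondrially encoded genes and 1.10 and 1.13 for glycolysis. The 7 macrophage markers summed to 639.4 and 520.8 CPM in these cells, none of them at 0, against 16990 and 17350 CPM in other macrophages. The 8 markers of dividing cells summed to 419.8 and 1136 CPM in Ctsk Acp5 cells, against 31.6 and 45.0 CPM in other macrophages, and their part in the member levels was not tested. Their depth was higher, with medians of 29387.5 and 41741 UMIs a cell.

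**Figure D5:**
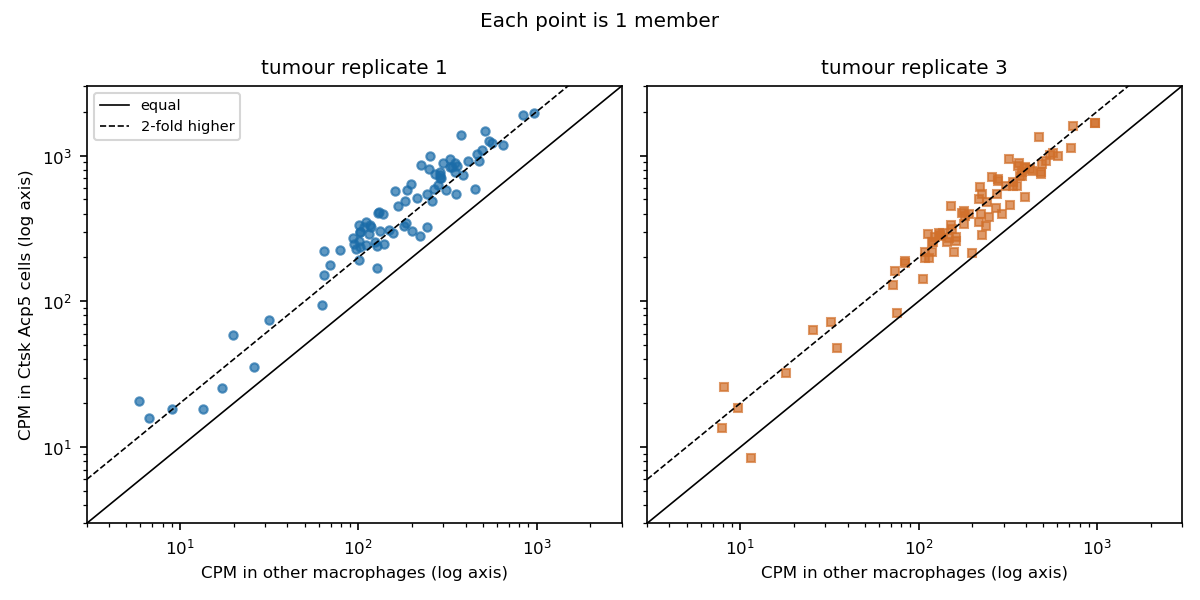
CPM of each of 83 members in Ctsk Acp5 cells (vertical, log axis) against other macrophages (horizontal, log axis) in tumour replicate 1 (left) and replicate 3 (right), with the line of equality and a dashed line at 2-fold higher. All but 1 member lie above equality in both tumours, with median ratios of 2.34 and 1.92.

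The member share of other macrophages by leading spatial code did not have the same order in the 2 tumours. The labels do not say which code marked which region. Macrophages in which code ZC1 led by at least 2-fold over ZC5 had a member share of 1.97% in replicate 1 (291 cells), against 1.89% where ZC5 led (133 cells). In replicate 3 the ZC1 share was 2.12% (154 cells), against 2.34% for ZC5 (164 cells). With a lead of at least 4-fold the shares were 1.97% for ZC1 (50 cells) and 1.72% for ZC5 in replicate 1, the last from 2 cells, and 2.15% for ZC1 (21 cells) and 2.31% for ZC5 (15 cells) in replicate 3. No test was made over 2 samples.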

How the data were processed

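Single-cell RNA was measured in 2 tumours. Per the labels' protocols the libraries were 10x 3' v3, and per the submitters' processing notes counts came from Cell Ranger 4.0 on mm10. The authors deposited whole-number UMI counts per gene and barcode, not normalised and not restricted to cells; which annotation release was used and how multi-mapping reads were handled is not given in the sources used here.

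Cells needed at least 1000 UMIs, 500 genes and at most 10% mitochondrial UMIs. A marker was on when its UMIs exceeded what 10% free RNA would give (Poisson p under 0.001, free RNA from barcodes of 10 to 100 UMIs). Gates needed 5 of 7 macrophage markers, 4 of 8 for neutrophils, 4 of 7 for pDC and for activated dendritic cells, 3 of 6 for cDC1, cDC2 (with Cd209a) and monocytes (with Ly6c2), 3 of 7 for NK cells and 3 of 5 for T cells. Dividing macrophages had at least 3 of 8 cycle markers on, other macrophages 0. Macrophages with 1 or 2 on (116 and 199 cells) entered neither class. The gate thresholds were chosen with the data in view, class names are not the authors' annotation, and cells passing several gates were dropped as possible doublets. Members, marker and gene lists were chosen with earlier results of these data known.

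Sums of UMIs for each tumour and class were compared. The 24 sums entered 1 edgeR 4.0.16 fit (R 4.3.3, limma 3.58.1; TMM, filterByExpr, tumour as a block, 11 residual degrees of freedom), markers were not tested, and standard errors come from the F statistic. The block rests on the shared tissue: differences between tumours correlated across genes by 0.0384 to 0.632 over 66 pairs of classes. Intervals are exact at 95% and cover counting error only; ratios within 1 tumour use CPM + 1. Members named were, by rule, up to 4 with the largest changes in each direction per comparison (same direction in both tumours), core subunits and isoforms; Cox8a, Ndufb10, Cox6a1, Cox6b1, Sdhc, Sdhd, Ndufb8, Cox5b, Atp5j, Atp5c1 and Uqcr10 were named after their values were seen. The pipeline was tested on simulated data: with 100 genes changed 2-fold and 100 changed 4-fold, 39 and 84 were recovered for neutrophils against macrophages (9105 genes), and 8 and 43 for activated dendritic cells against cDC2 (9142 genes). The values of 1 member are not reported here.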

Additional observations from a re-analysis of the deposited data

How the results depend on the processing

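The tests rest on 2 tumours, and classes of 11 to 14 cells limit the dendritic cell comparisons. Most alternatives changed 1 choice at a time. Totals outside ribosomal and mitochondrial genes were used without TMM factors, so both choices changed together. The scaled UMI minimum also lowered the gene minimum from 500 to 300. The deep-macrophage comparison was chosen after seeing the data. Members called (higher and lower together) moved by over 1.5 times in 23 repeats and stayed within that in 81, and the cause was not tested. Counts under an alternative, here and above, stand without the share of all genes called under it. They therefore do not show whether the members differ from all genes there.

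For dividing macrophages, main count 0, 2 were called with the UMI minimum scaled to the deepest cells, 2 without high doublet scores, 2 with totals outside ribosomal and mitochondrial genes, 1 with no filter on low counts and 3 with DESeq2 1.42.0. For monocytes, main count 0, 2 were called with gates of 1 more marker, 2 with no filter on low counts and 3 with DESeq2. For neutrophils, main count 46, totals outside ribosomal and mitochondrial genes gave 81; DESeq2 gave 52. For CD8 T cells, main count 10, 5 were called at a 5% mitochondrial limit and 5 after free RNA was subtracted. For cDC2, main count 1, the scaled UMI minimum gave 2 and DESeq2 gave 3. For pDC, main count 10, gates of 1 more marker gave 5, other totals 5, no filter on low counts 4 and free RNA subtracted 5. For activated dendritic cells, main count 5, the 5% limit gave 3. For regulatory T cells, main count 0, 1 was called without high doublet scores and 3 with DESeq2. Without the tumour block, the counts were 0 for CD8 T cells, 3 for pDC and 1 for activated dendritic cells, and 35 for neutrophils.

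All alternatives that could be run kept 32 of the 45 members that fell in neutrophils, 1 of 8 that fell and 2 of 2 that rose in pDC, and 1 of 5 in activated dendritic cells; for CD8 T cells they kept 0 of 10, each lost under at least 1. Cox6a2 is among those kept in pDC, and its passing is not separate support, for the reason given above. Members named by the rule kept their direction in every repeat: 412 kept their side of the threshold and 57 no longer passed. Cox8a in neutrophils, named after its values were seen, turned to -0.15 with totals outside ribosomal and mitochondrial genes. Leaving out a tumour gives a value with no test: the members' median log2 CPM ratio ranged from -1.55 to -0.60 for neutrophils, from 0.21 to 0.41 for dividing macrophages and from -0.46 to -0.28 for activated dendritic cells. Shares of UMIs per class stayed within the spread between tumours in 127 repeats and moved beyond it in 19 for the members (103 and 43 for the mitochondrially encoded genes). With the scaled UMI minimum neutrophils could not be compared, at the 5% limit pDC could not, and with at least 20 cells cDC2, pDC and activated dendritic cells could not.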
